A study of Rattus norvegicus with 17 samples.

Results

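The 6 control arrays of a microarray series on the fetal rat gubernaculum were described here as a baseline transcriptome. They are the arrays whose titles call them gubernaculum control, 6 of 17 in the series. The other arrays are of gubernacula exposed to insulin-like 3 (Insl3) and enter no value given here. Each control replicate pooled 2 gubernaculum bulbs from male Long Evans rat fetuses at gestational day 17. The bulbs were cut free where they joined the abdominal wall and placed on filter inserts at the surface of the medium. They were cultured for 24 h and then for another 24 h, all without hormone, in medium with charcoal-stripped fetal bovine serum and an insulin, transferrin and selenium supplement. All 6 RNA samples had an integrity number of 10, and the yield of labelled cRNA ran from 50.3 to 102.69 µg. The values therefore describe cultured bulbs, not freshly dissected tissue, and each is an average over 2 bulbs and over all their cells.

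The gubernaculum is the fetal ligament that ties the testis to the future scrotum. Its bulb has a core of loose mesenchyme rich in matrix, which swells during the transabdominal phase of testis descent under the Leydig cell hormone Insl3, and an outer layer of developing cremaster muscle. Muscle cells, mesenchymal cells, vessels, nerves and a peritoneal covering all lie within the dissected structure. In bulk RNA of this kind, fewer cells of a type and less RNA per cell cannot be told apart.

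Signals are GCRMA values on a log2 scale, 1 per probe set, and the probe set with the highest mean stood for each of 14218 genes. A gene is called clear where its signal was at least 5 in all 6 arrays, strong where it was at least 10 in all 6, and at the floor where it lay within 0.1 of the array's lowest value, 2.11, in all 6. By these rules 8925 genes (62.8%) were clear, 2975 (20.9%) were strong, 3219 (22.6%) were at the floor and 2074 lay between. Every count of list members below is to be read beside these shares, and a list near 62.8% clear is like genes at large in this. The median of the genes' mean signals was 7.60. All 29 genes of odorant, vomeronasal and taste receptors on the array, which serve the chemical senses, lay at the floor. A floor value says only that the probe set gave no signal above the shared minimum. Among 3475 clear genes with several probe sets, 1101 (31.7%) had another probe set at the floor in all 6 arrays, and 2749 of the floor genes had 1 probe set. Probe sets also differ in how well they bind, so the order of signals between genes is not an order of transcript numbers.

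**Figure D1:**
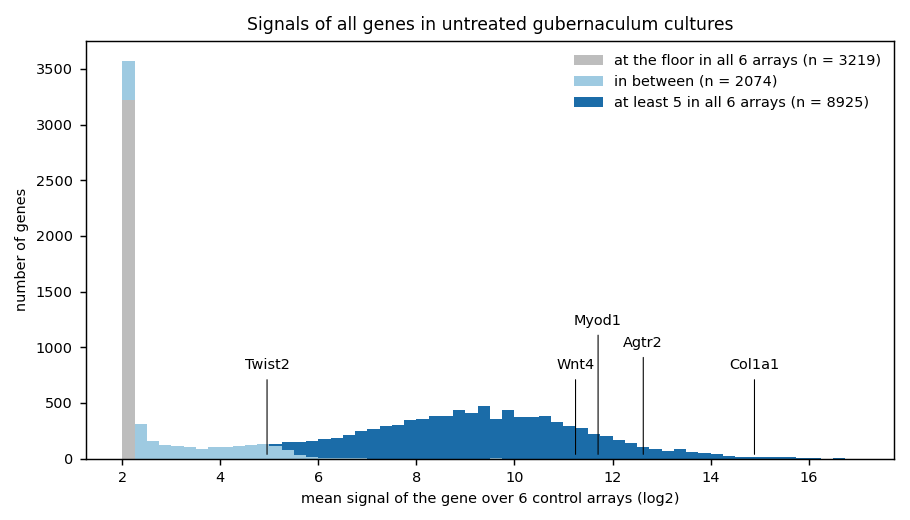
Histogram of the mean signal (GCRMA, log2) of 14218 genes over the 6 control arrays, with the number of genes on the vertical axis and the shade giving the class. The tall bar at the left holds the 3219 floor genes, the 8925 clear genes form a broad hump, and lines mark the means of Twist2 (4.95), Wnt4 (11.25), Myod1 (11.71), Agtr2 (12.63) and Col1a1 (14.90).

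The arrays were not equally alike. Array medians lay between 4.33 and 4.39 and 38.3% to 39.2% of probe sets sat at the floor in each, while pairs of arrays correlated across genes at r of 0.972 to 0.996, genes not being independent replicates. On the first principal component of the clear genes (44.5% of the variance) replicates 3, 4 and 5 scored -15.60, -16.19 and -12.41, and replicates 1, 2 and 6 scored 14.11, 10.68 and 19.40. The second component (34.2%) set replicate 6, at -23.27, apart from replicates 1 and 2, at 15.47 and 14.22. Replicate 6 also had the largest median absolute difference from the mean of the other arrays, 0.23 against 0.10 to 0.15 for the others. The labels name no batch for these divisions. Replicates 4 and 5 carried signals of liver genes, and blood cell genes were higher in replicates 3, 4 and 5, with values given below beside the other cell types.

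The 5 genes taken to mark the tissue were first examined array by array. Agtr2, the angiotensin II type 2 receptor and a receptor of fetal mesenchyme, had signals of 12.65, 12.80, 12.46, 12.64, 12.66 and 12.56 in replicates 1 to 6 (12.63 ± 0.11, SD, n = 6). No array stood away from the rest for Agtr2, although its second probe set averaged 8.44. Wnt4, a secreted ligand of urogenital mesenchyme, gave 11.42, 11.53, 10.96, 11.08, 11.14 and 11.35 (11.25 ± 0.22, SD, n = 6), with replicates 3, 4 and 5 the lowest by a small margin. Col1a1, a chain of type I collagen, gave 15.02, 15.05, 14.82, 14.69, 14.93 and 14.86 (14.90 ± 0.13, SD, n = 6). Myod1, the myogenic regulator of muscle commitment, gave 11.77, 11.82, 11.61, 11.72, 11.66 and 11.65 (11.71 ± 0.08, SD, n = 6). These 4 genes were strong in every array. Twist2, a mesenchymal repressor of the Twist family, differed from them, with 5.00, 4.86, 4.94, 4.82, 4.90 and 5.19 (4.95 ± 0.13, SD, n = 6). Twist2 thus lay near the threshold for a clear signal and passed it in only some arrays, whereas its relative Twist1 was clear at 9.81 ± 0.36 (SD, n = 6). The male label was matched by clear signals of the Y-linked genes Eif2s3y (10.72 ± 0.37, SD, n = 6) and Uty (9.70 ± 0.24, SD, n = 6) and by Xist, the RNA of the inactive X chromosome, at the floor. Of the 4 measured genes in the sex-linked list 2 were clear, 1 was at the floor and 1 was off the floor in replicate 5 only.

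The strongest signals came from the translation machinery, mitochondrial genes, globin, collagen and imprinted growth genes. Of the 30 genes with the highest means, 18 encode ribosomal proteins, as do 38 of the highest 100. Hbb, a beta-globin chain, led with 16.43, 16.52, 16.66, 16.71, 16.65 and 16.62 (16.60 ± 0.11, SD, n = 6). The mitochondrial cytochrome oxidase subunits COX2 and COX1 averaged 15.97 ± 0.06 and 15.70 ± 0.09 (SD, n = 6). Imprinted genes of fetal growth were also among the 30. Cdkn1c, a cell cycle inhibitor expressed from the maternal allele, gave 15.88, 15.85, 15.85, 15.90, 15.83 and 15.84 (15.86 ± 0.03, SD, n = 6). Igf2, the fetal insulin-like growth factor, averaged 15.66 ± 0.09, its neighbour H19, a non-coding RNA, 15.49 ± 0.09, and Gnas, the stimulatory G protein subunit through which Insl3 receptors signal, 15.57 ± 0.05 (SD, n = 6). No array stood apart for any of these 4 imprinted genes, but the median over the probe sets of Igf2 was 2.12 and over those of Gnas 7.46.

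Matrix genes were among the strongest groups. Of 9 fibrillar collagen genes on the array 6 were clear (66.7%), near the 62.8% of all genes. Their list had a median signal of 12.81, beside 7.60 for all genes. Col3a1, the chain of type III collagen found in loose connective tissue, gave 15.88, 15.88, 15.80, 15.76, 15.82 and 15.72 (15.81 ± 0.06, SD, n = 6). Col1a2, the partner chain of Col1a1, averaged 15.35 ± 0.06 and Col5a2, of the type V collagen that sets fibril width, 14.14 ± 0.06 (SD, n = 6). Of the cartilage collagens, Col2a1 averaged 2.14 ± 0.06 (SD, n = 6) and Col11a2 was at the floor. Of 20 other collagens 12 were clear, led by the type VI chain Col6a3 at 13.91 ± 0.12 and Col14a1, a fibril-associated collagen, at 12.84 ± 0.14 (SD, n = 6), while Col4a4, Col9a1 and Col10a1 were at the floor.

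Among 40 matrix glycoproteins and elastic fibre proteins 32 were clear, with a median of 11.00. Sparc, a collagen-binding protein, averaged 14.47 ± 0.06 and Postn, periostin, 14.23 ± 0.16 (SD, n = 6). Fn1, fibronectin, gave 13.68, 13.56, 12.92, 12.92, 13.18 and 12.95 (13.20 ± 0.34, SD, n = 6), highest in replicates 1 and 2. Eln, elastin, was clear at a more modest 8.71 ± 0.17 (SD, n = 6), and Vtn, Lama1, Ltbp2 and Matn1 were at the floor. Of 24 proteoglycan and hyaluronan genes 20 were clear. The small proteoglycans Dcn and Lum, which bind collagen fibrils, averaged 14.73 ± 0.10 and 13.93 ± 0.14 (SD, n = 6). Vcan, versican, a large hyaluronan-binding proteoglycan, gave 14.10, 13.96, 13.41, 13.42, 13.50 and 13.58 (13.66 ± 0.29, SD, n = 6), highest in replicates 1 and 2, and Has2, a hyaluronan synthase, was clear. Ogn, osteoglycin, was likewise highest in replicates 1 and 2, at 11.90 and 11.68, and lay between 10.40 and 11.45 in the others. Acan, the proteoglycan of cartilage, was at the floor.

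Enzymes that make and cut the matrix were measured as well. Of 16 crosslinking and collagen-processing genes 15 were clear, from Serpinh1, the collagen chaperone, at 14.54 ± 0.12 to Bmp1, the procollagen protease, at 8.03 ± 0.14 (SD, n = 6). Lox, lysyl oxidase, averaged 11.30 ± 0.24 (SD, n = 6). Of 27 proteases and inhibitors 21 were clear, with the gelatinase Mmp2 at 13.16 ± 0.15 and its membrane-bound activator Mmp14 at 13.73 ± 0.16 (SD, n = 6). The inhibitors Timp3, Timp2 and Timp1 were clear, with means of 12.80, 12.58 and 11.46. Mmp3, Mmp7, Mmp13 and Timp4 were at the floor. Of 19 integrin genes, the receptors that hold cells to matrix, 12 were clear (63.2%), near the 62.8% of all genes. The shared beta chain Itgb1 averaged 12.63 ± 0.07 (SD, n = 6).

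**Figure D2:**
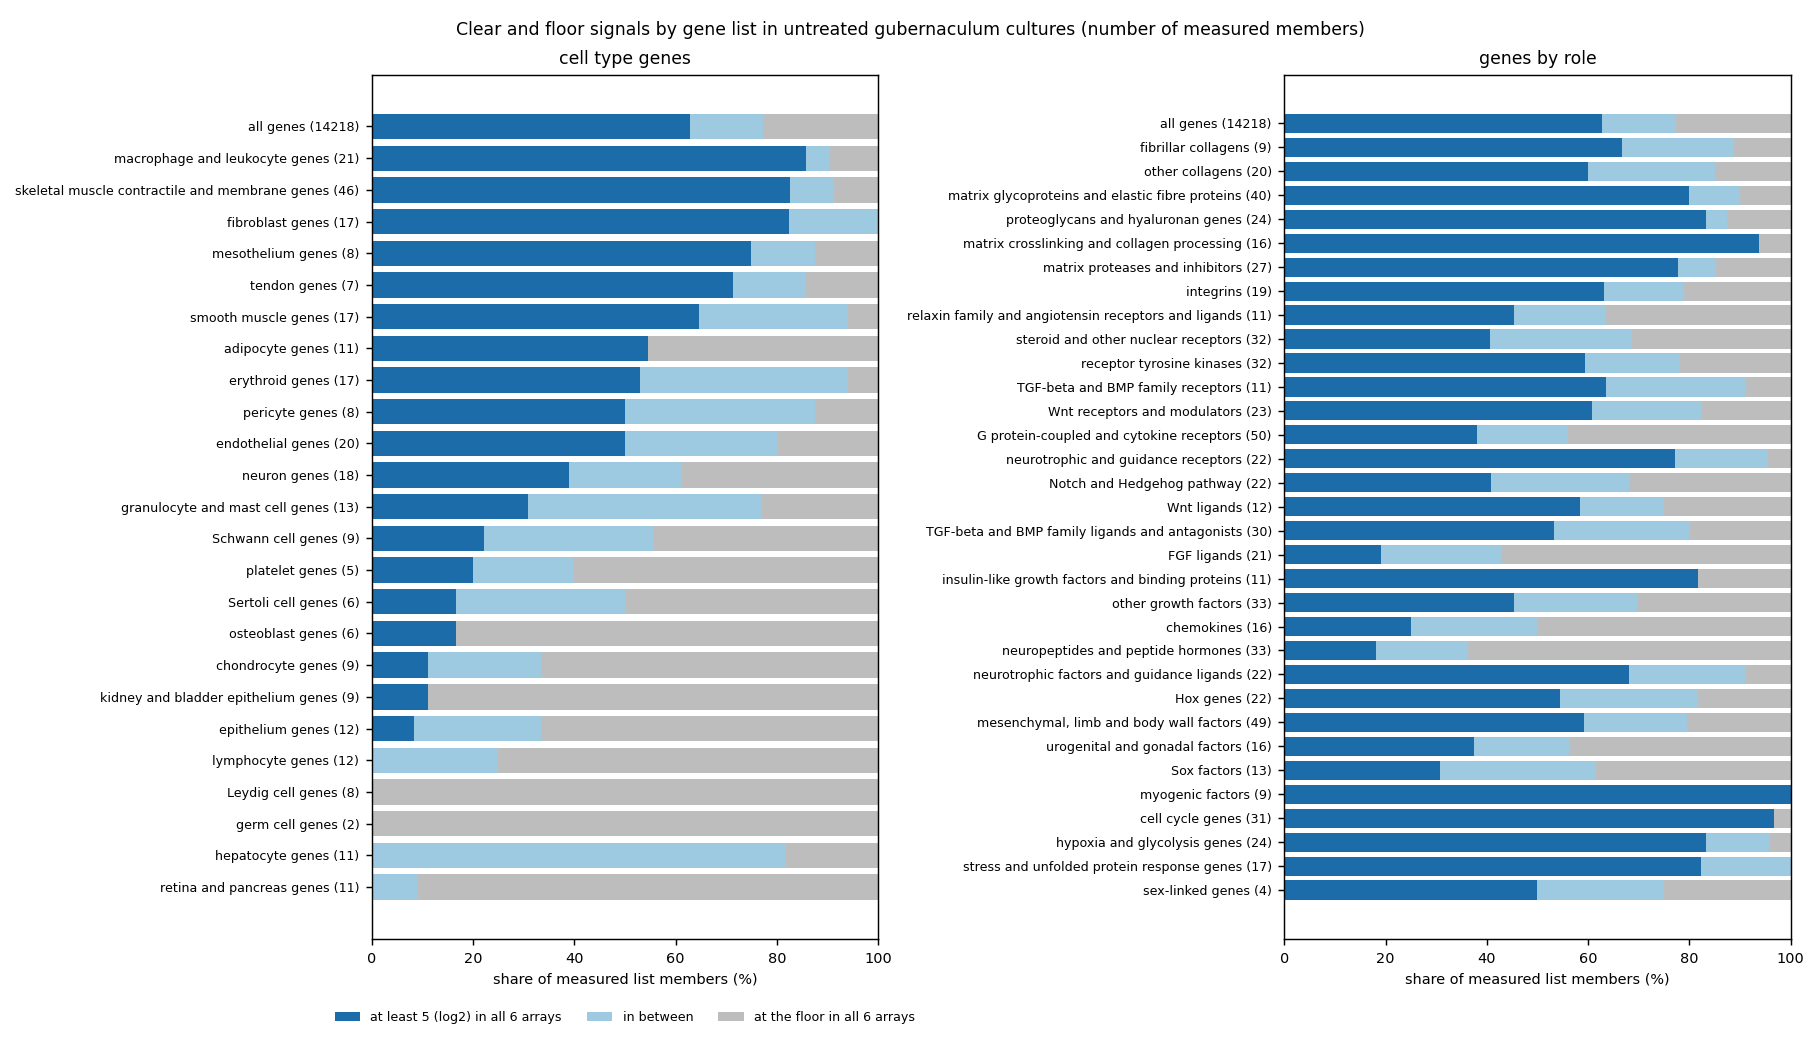
Share of the measured members of each gene list (%) that were at least 5 in all 6 control arrays, in between, or at the floor in all 6, with all 14218 genes as the top bar of each panel and the number of members in parentheses. Of the matrix lists only the other collagens, at 60.0%, lie below the 62.8% of all genes, and all Leydig and germ cell genes lie at the floor.

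Skeletal muscle genes formed another strong group. Of 14 listed myogenic factors 9 were measured and all 9 were clear. They include Mef2a, Mef2d, Six4 and Tcf4, and Myf5 was not measured. Of 46 contractile and membrane genes of skeletal muscle 38 were clear, with a median signal of 11.25. Myog, the regulator that drives myoblast differentiation, gave 14.97, 15.01, 14.78, 14.89, 14.91 and 14.56 (14.85 ± 0.16, SD, n = 6). Myf6 and Mef2c, later acting myogenic factors, averaged 9.19 ± 0.22 and 12.51 ± 0.33 (SD, n = 6). The mean of the contractile list ran from 9.79 to 9.99 between arrays.

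Contractile genes are given with their isoforms. Myl11, a fast myosin light chain, averaged 15.08 ± 0.06 (SD, n = 6). Acta1, skeletal alpha-actin, gave 14.85, 14.81, 14.73, 14.72, 14.78 and 14.93 (14.80 ± 0.08, SD, n = 6), and Myh3, the embryonic myosin heavy chain, gave 14.77, 14.91, 14.51, 14.90, 14.77 and 14.97 (14.81 ± 0.16, SD, n = 6). No array stood apart for either gene. Of the other heavy chains, Myh8, the perinatal form, averaged 8.35 ± 0.31 and Myh7, the slow form, 10.05 ± 0.21 (SD, n = 6), while the adult fast forms Myh2 and Myh4 were at the floor and Myh1 was clear at 10.91 ± 0.23 (SD, n = 6). Tnnt2, the cardiac and embryonic troponin T, was clear at 12.60 ± 0.14 (SD, n = 6), and Mymk, the membrane activator of myoblast fusion, at 12.27 ± 0.34 (SD, n = 6). Subunits of the muscle acetylcholine receptor were clear too, with Chrna1 at 11.40 ± 0.27 and Chrng, the fetal gamma subunit, at 8.82 ± 0.46 (SD, n = 6). Ckm, the muscle creatine kinase, averaged 12.02 ± 0.19 (SD, n = 6), whereas Mb, myoglobin, stayed low at 2.80 ± 0.20 (SD, n = 6).

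Promoters of 4 genes of the muscle and matrix groups, and of Egr1, whose level varied between arrays, are printed because they carry the motifs counted below. Each is RefSeq sequence of assembly GRCr8 from 250 bases before to 50 bases after the gene's start, read on the gene's strand, with matches in capitals. The motifs searched on both strands were TATAAA, the letters of a TATA box, CAGCTG, an E-box letter string that reads the same on both strands, and the CArG box of serum response factor. Acta1 holds 1 match of each, Ckm and Chrna1 2 of CAGCTG, Col1a2 1 of TATAAA and Egr1 2 CArG boxes.
Acta1, chr19:68784145-68784444 (- strand): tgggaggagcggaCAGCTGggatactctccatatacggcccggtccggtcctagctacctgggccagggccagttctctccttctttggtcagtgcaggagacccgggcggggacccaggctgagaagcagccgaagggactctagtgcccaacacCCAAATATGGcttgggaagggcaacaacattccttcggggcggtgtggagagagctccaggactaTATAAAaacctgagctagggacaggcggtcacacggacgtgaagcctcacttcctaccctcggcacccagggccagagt
Ckm, chr1:88189211-88189510 (+ strand): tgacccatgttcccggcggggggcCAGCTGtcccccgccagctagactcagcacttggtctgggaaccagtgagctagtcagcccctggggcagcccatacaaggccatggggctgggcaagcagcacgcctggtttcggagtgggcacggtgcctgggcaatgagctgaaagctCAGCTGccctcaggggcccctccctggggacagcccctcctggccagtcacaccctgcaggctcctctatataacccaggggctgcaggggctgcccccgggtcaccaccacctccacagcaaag
Chrna1, chr3:78877304-78877603 (- strand): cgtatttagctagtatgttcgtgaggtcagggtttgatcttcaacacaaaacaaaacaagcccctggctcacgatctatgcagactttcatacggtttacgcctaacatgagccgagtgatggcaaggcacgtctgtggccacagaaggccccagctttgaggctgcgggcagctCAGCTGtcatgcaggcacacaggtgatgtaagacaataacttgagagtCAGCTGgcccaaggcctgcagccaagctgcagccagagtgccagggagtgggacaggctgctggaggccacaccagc
Col1a2, chr4:33518307-33518606 (+ strand): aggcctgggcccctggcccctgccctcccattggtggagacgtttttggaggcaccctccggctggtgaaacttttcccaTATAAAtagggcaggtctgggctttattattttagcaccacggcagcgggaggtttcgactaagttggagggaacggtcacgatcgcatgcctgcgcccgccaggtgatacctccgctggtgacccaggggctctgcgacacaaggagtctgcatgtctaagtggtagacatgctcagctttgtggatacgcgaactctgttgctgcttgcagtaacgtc
Egr1, chr18:26736828-26737127 (+ strand): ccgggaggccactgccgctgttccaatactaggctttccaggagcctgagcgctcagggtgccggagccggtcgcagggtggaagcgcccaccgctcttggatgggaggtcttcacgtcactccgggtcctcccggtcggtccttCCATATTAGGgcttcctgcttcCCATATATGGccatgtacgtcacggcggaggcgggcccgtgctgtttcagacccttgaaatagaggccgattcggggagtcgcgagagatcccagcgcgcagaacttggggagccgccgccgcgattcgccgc

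Of the 46 skeletal muscle genes 38 had a promoter in the table, and CAGCTG was found in 16 of them (42.1%). The same letters occur in 15.1% of all 27457 promoters of the same length and in 16.6% of the 11734 promoters of genes on the array. TATAAA was found in 13 of the 38 (34.2%), beside 14.3% of all promoters and 8.46% of those on the array. CArG boxes were found in 4 of the 38 (10.5%), beside 1.64% of all promoters, but in only 1 of the 31 promoters of clear members (3.23%), that of Acta1. The other carriers were Myh4, at the floor, and Dmd and Myl3, which lay between. For CAGCTG and TATAAA the clear members gave 14 (45.2%) and 10 (32.3%) of 31. Of the 6 myogenic factor promoters none held CAGCTG. Over all genes on the array, TATAAA was found in 6.41% of the promoters of clear genes, 13.9% of those of floor genes and 15.1% of those of the 300 strongest. These are counts of letters in a window, with no test, and a match is not a binding site.

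**Figure D3:**
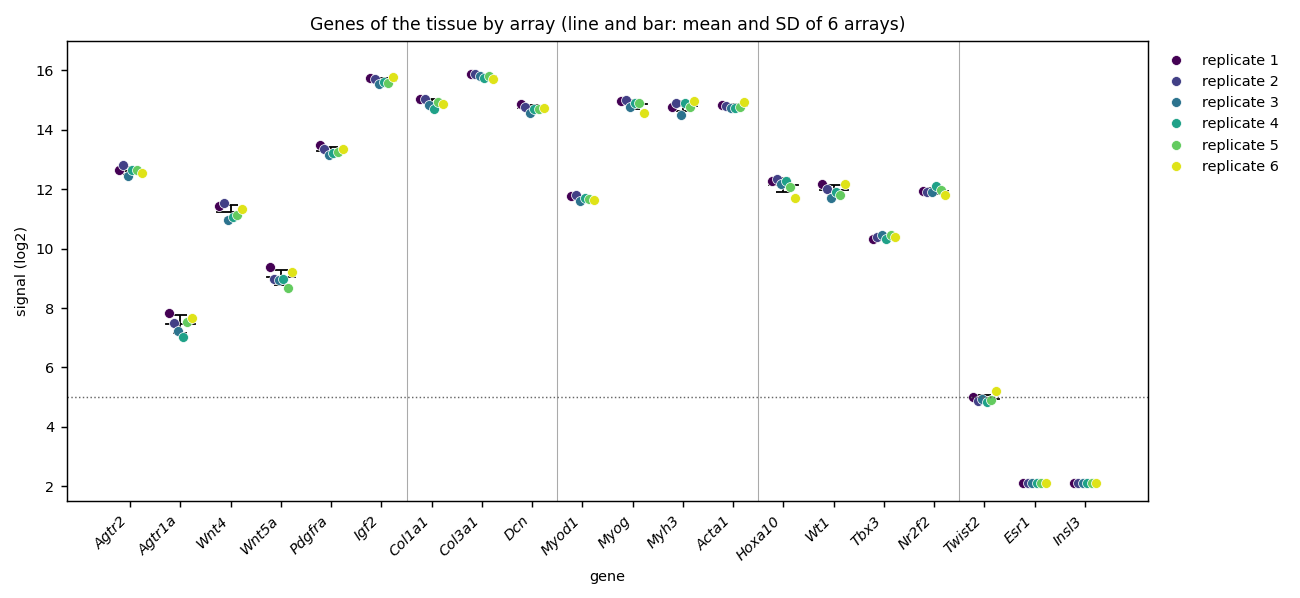
Signal (GCRMA, log2) of 20 genes in each of the 6 control arrays, 1 point per array, with a line and bar for the mean and SD and a dotted line at 5. The points of each gene lie close together, Twist2 lies on both sides of the dotted line, and Esr1 and Insl3 lie at the floor of 2.11.

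Receptors and then ligands are given by family. In the relaxin and angiotensin list 5 of 11 members were clear. Beside Agtr2, the type 1a receptor Agtr1a averaged 7.47 ± 0.29 (SD, n = 6), and Insl3, Agt (angiotensinogen), Agtr1b and Rln3 were at the floor. The Insl3 receptor gene Rxfp2 was not analysed here. Of 32 nuclear receptors 13 were clear. Nr2f2, an orphan receptor of mesenchyme, averaged 11.94 ± 0.09, Rarb, a retinoic acid receptor, 10.82 ± 0.09, and Nr3c1, the glucocorticoid receptor, 9.36 ± 0.24 (SD, n = 6). The estrogen receptors Esr1 and Esr2 were at the floor.

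Of 32 genes in the list of receptor tyrosine kinases 19 were clear (59.4%), near the 62.8% of all genes. The list also counts Igf2r, which clears Igf2 from the cell surface and is not a kinase. Igf2r gave 14.05, 13.94, 13.66, 13.57, 13.69 and 13.04 (13.66 ± 0.35, SD, n = 6), lowest in replicate 6. Pdgfra, the receptor that marks mesenchymal fibroblasts, averaged 13.30 ± 0.12, Fgfr1 10.38 ± 0.25 and Igf1r, the receptor for Igf1 and Igf2, 9.47 ± 0.13 (SD, n = 6). Kit, Met, Erbb4 and Flt1 were at the floor. Of 11 TGF-beta and BMP receptors 7 were clear (63.6%), also near that share, led by Tgfbr1 at 12.78 ± 0.15 and Bmpr1a at 10.77 ± 0.23 (SD, n = 6). Amhr2, the receptor of anti-Müllerian hormone, passed 5 in only some arrays (5.24 ± 0.42, SD, n = 6).

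For the Wnt pathway 7 of 12 ligands (58.3%) and 14 of 23 receptors and modulators (60.9%) were clear, near the 62.8% of all genes. Wnt5a, a non-canonical ligand, averaged 9.03 ± 0.25 (SD, n = 6). Wnt16 gave 7.38, 7.70, 8.21, 8.07, 8.15 and 5.46 (7.50 ± 1.05, SD, n = 6), with replicate 6 far below the rest. The secreted inhibitor Sfrp2 averaged 13.81 ± 0.17 and the receptor Fzd1 10.96 ± 0.23 (SD, n = 6). Of 50 G protein-coupled and cytokine receptors 19 were clear and 22 at the floor, the clear ones including F2r, the thrombin receptor, at 13.60 ± 0.12 and Lpar1, a lysophosphatidic acid receptor, at 13.09 ± 0.17 (SD, n = 6). Of 22 Notch and Hedgehog genes 9 were clear, with the receptor Notch1 at 9.83 ± 0.33, its target Hes1 at 9.88 ± 0.16 and the Hedgehog effector Gli2 at 9.02 ± 0.12 (SD, n = 6), and the Hedgehog ligands Shh, Ihh and Dhh were at the floor.

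Of 11 insulin-like growth factor genes and binding proteins 9 were clear, with a list median of 11.02, with Igf1 at 14.18 ± 0.17 and the binding protein Igfbp3 at 14.57 ± 0.16 (SD, n = 6), and Ins1 and Ins2, the insulin genes, at the floor. Igfbp5, a binding protein, varied more, with 15.27, 14.84, 13.28, 13.10, 13.17 and 14.90 (14.09 ± 1.01, SD, n = 6). Replicates 3, 4 and 5 were the 3 lowest for Igfbp5. Of 30 TGF-beta and BMP ligands and antagonists 16 were clear, led by Fstl1, a secreted follistatin-like protein, at 13.46 ± 0.16 (SD, n = 6). Of 21 FGF ligands only 4 were clear and 12 at the floor. Fgf13, an intracellular member, averaged 11.12 ± 0.14 and Fgf9 7.90 ± 0.28 (SD, n = 6), while Fgf10, the mesenchymal ligand of limb and lung, lay between at 3.48 ± 0.57 (SD, n = 6). Other growth factors were clear for 15 of 33, led by the heparin-binding Ptn at 13.30 ± 0.20 (SD, n = 6), and chemokines for 4 of 16, led by Cxcl12 at 12.39 ± 0.38 (SD, n = 6). Neuropeptides and peptide hormones were the ligand list most often at the floor, 21 of 33, and Penk, proenkephalin, led the 6 clear ones at 11.18 ± 0.38 (SD, n = 6). Of 22 neurotrophic and guidance ligands 15 were clear, and of 22 receptors for them 17. Sema3c, a secreted guidance cue, averaged 11.05 ± 0.31 (SD, n = 6), and its receptor subunit Nrp1 gave 11.42, 11.36, 11.16, 10.98, 11.25 and 9.85, lowest in replicate 6.

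Transcription factors of body position, mesenchyme and the urogenital ridge were read next. Of 22 Hox genes 12 were clear (54.5%), beside 62.8% of all genes. Hoxa10 gave 12.27, 12.34, 12.16, 12.26, 12.06 and 11.72 (12.14 ± 0.23, SD, n = 6). Hoxa11 was clear at 9.79 ± 0.14 (SD, n = 6), and Hoxb13, Hoxd11, Hoxb6 and Hoxd1 were at the floor. Of 49 mesenchymal, limb and body wall factors 29 were clear (59.2%), near the share of all genes, with Zeb1 at 11.74 ± 0.08 and Tbx3 at 10.39 ± 0.06 (SD, n = 6). Of 16 urogenital and gonadal factors 6 were clear. Wt1, a regulator of urogenital mesenchyme and mesothelium, averaged 11.96 ± 0.20 (SD, n = 6), while the kidney factors Pax2, Pax8 and Lhx1 and the gonadal factors Nr5a1 and Dmrt1 were at the floor. Sox4 averaged 13.55 ± 0.12 (SD, n = 6) among 4 clear Sox factors of 13.

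Other cell types left different traces. Of 17 fibroblast genes 14 were clear, with a median of 12.53. Vim, the mesenchymal intermediate filament, gave 14.87, 14.80, 14.84, 14.87, 14.93 and 14.91 (14.87 ± 0.05, SD, n = 6). Smooth muscle genes were clear for 11 of 17 (64.7%), near the 62.8% of all genes. Tagln, transgelin, averaged 12.19 ± 0.18 and Acta2, smooth muscle actin, 9.76 ± 0.15 (SD, n = 6). Cnn1 and Actg2, of mature smooth muscle, were low at 2.39 ± 0.13 and 2.82 ± 0.07 (SD, n = 6), and Myh11, the smooth muscle myosin, ran from 4.79 to 7.66. Pericyte genes were clear for 4 of 8, with Pdgfrb at 9.62 ± 0.12 (SD, n = 6), Rgs5 at 2.56 ± 0.66 (SD, n = 6) and Notch3 at the floor. Of 11 adipocyte genes 6 were clear, led by the lipase Lpl at 10.98 ± 0.09 (SD, n = 6), while Pparg, the adipocyte regulator, Adipoq and Plin1 were at the floor. Endothelial genes were clear for 10 of 20. Among endothelial genes Kdr, a VEGF receptor, was clear at 9.87 ± 0.28 and Cldn5, a tight junction protein, at 9.51 ± 0.48 (SD, n = 6), while Pecam1 lay between at 2.95 ± 0.21 (SD, n = 6) and Tek, Flt1, Vwf and Plvap were at the floor. Macrophage and leukocyte genes were clear for 18 of 21, and the complement gene C1qa gave 10.76, 10.60, 10.66, 10.62, 11.15 and 11.10 (10.82 ± 0.25, SD, n = 6). Their list mean ran from 8.73 to 9.18, and that of replicate 6, 8.99, lay near the 9.01 of replicate 3. Replicates 3, 4 and 5 were the 3 highest for 6 of the 19 members not at the floor (31.6%), beside 9.0% of all clear genes. The first component of the clear genes had already set these replicates apart, so the count gives no separate evidence for that division. Cd52, a leukocyte surface protein, was among the 25 most variable clear genes, with 7.92, 8.36, 10.54, 10.33, 10.45 and 10.00. Chondrocyte genes were clear for 1 of 9, osteoblast genes for 1 of 6 and epithelial genes for 1 of 12, with Epcam at the floor. None of 12 lymphocyte genes was clear. All 8 Leydig cell genes were at the floor, as were 8 of 9 kidney and bladder genes. Scx, the tendon factor, was clear at 10.50 ± 0.22 (SD, n = 6), and Tnmd, tenomodulin, a marker of mature tendon, was at the floor.

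Genes of nerve cells were clear less often than genes at large. Of 18 neuron genes 7 were clear (38.9%), beside 62.8% of all genes, and 38.9% were at the floor, beside 22.6%. Stmn2, a growth cone protein, led at 11.45 ± 0.30, and the neurofilament Nefl averaged 9.42 ± 0.53 (SD, n = 6). Tubb3, Th, Dbh and Chat were at the floor. Of 9 Schwann cell genes 2 were clear (22.2%) and 44.4% were at the floor, among them Sox10, the defining factor.

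Of 31 cell cycle genes 30 were clear, with a median of 10.90. Mki67, a marker of cycling cells, gave 11.65, 11.68, 9.89, 11.74, 11.03 and 11.83 (11.30 ± 0.75, SD, n = 6), lowest in replicate 3. The giant muscle proteins Ttn and Neb were also lowest there, Ttn at 10.40 against 11.30 to 11.92 in the other arrays and Neb at 9.77 against 10.56 to 11.39. Pcna, the replication clamp, averaged 13.95 ± 0.07 (SD, n = 6). Glycolytic and hypoxia genes were clear for 20 of 24 and stress and unfolded protein response genes for 14 of 17, with Car9 at the floor and the chaperone Hspa5 at 13.06 ± 0.05 (SD, n = 6).

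Liver genes separated 2 of the arrays. Alb, serum albumin, gave 2.46, 3.72, 2.47, 11.43, 8.84 and 3.61 in replicates 1 to 6. Afp, alpha-fetoprotein, gave 2.67, 4.53, 2.11, 9.86, 7.44 and 3.24. Ttr, transthyretin, gave 5.74 in replicate 5, still more in replicate 4, and 3.59 to 3.77 in the other arrays. Replicates 4 and 5 were the highest arrays for all 3 genes. Of 11 hepatocyte genes 4 reached 5 in replicate 4 and 3 in replicate 5, and none did in the others. The list mean was 5.15 in replicate 4 and 3.55 in replicate 5, and 2.29 to 2.62 elsewhere. Apob, an apolipoprotein of liver, was at the floor in all 6. What part these liver genes had in other differences between arrays was not tested. Without replicates 4 and 5, 8 of the 11 hepatocyte genes were at the floor, in place of 2, and the count of clear genes was 8967, in place of 8925.

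Blood cell genes followed a wider division. The list mean of 17 erythroid genes was 6.80, 7.28, 9.02, 9.36, 9.26 and 8.13 in replicates 1 to 6, and that of 13 granulocyte and mast cell genes was 4.23, 4.32, 5.07, 5.79, 5.73 and 4.46. Replicates 3, 4 and 5 were the 3 highest arrays for 14 of the 16 erythroid genes not at the floor and for 8 of 10 granulocyte and mast cell genes. Over all clear genes this order was seen for 803 (9.0%), and the opposite, with these the 3 lowest, for 1242 (13.9%). Of the 16 erythroid genes 7 lay between, as did 6 of the 10 others. The shares of clear genes are thus not for the same kind of gene. Hbg1 and S100a8 were also among the genes that weigh most on the first component, which set these replicates apart. The list counts therefore give no separate evidence for the division. Hbg1, a gamma-type globin, gave 9.76, 11.04, 13.79, 13.62, 13.69 and 12.80, and Hbz, the embryonic zeta-globin, 4.51, 8.36, 10.40, 11.19, 11.95 and 11.27. Hbe1, an embryonic-type globin, gave 12.14, 13.98, 15.43, 15.59, 15.75 and 15.38. Replicate 1 was the lowest array for all 3 globins. Car1, carbonic anhydrase 1 of red cells, gave 2.13, 2.11, 7.83, 7.39, 7.37 and 2.66. Replicate 6 lay nearer to replicates 3, 4 and 5 for these globins and nearer to replicates 1 and 2 for Car1. Near-identical globin and defensin genes may share signal on 1 probe set. None of the 42 skeletal muscle genes that were not at the floor, and 1 of 17 fibroblast genes, had replicates 3, 4 and 5 as the 3 highest. The part of blood cells in the other differences between arrays was not tested.

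**Figure D4:**
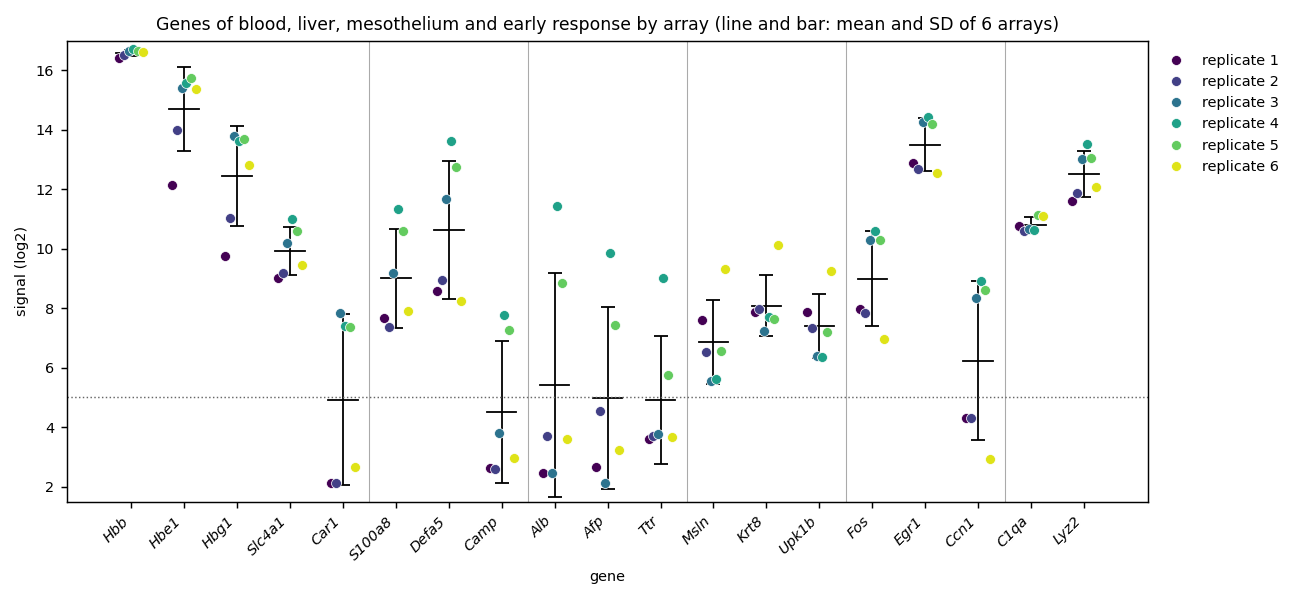
Signal (GCRMA, log2) of genes of blood, liver, mesothelium and early response in each of the 6 control arrays, 1 point per array. A line and bar give the mean and SD, and the dotted line is at 5. At the right are C1qa and Lyz2, of the macrophage and leukocyte list. Replicates 4 and 5 are highest for Alb, Afp and Ttr, replicate 6 for Msln, Krt8 and Upk1b, and replicates 3, 4 and 5 for Fos, Egr1 and Ccn1.

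Most clear genes varied little between replicates. Their median SD was 0.18, with a range from 0.07 to 0.45 between the 5th and 95th percentiles, and 326 of them (3.65%) had an SD above 0.5 and 45 (0.504%) above 1. The median SD fell with signal, from 0.24 among 1152 genes with means of 5 to 7 to 0.10 among 413 genes with means of 13 to 17. The 10 genes of smallest SD among listed genes with means of 8 to 13 had SDs of 0.05 to 0.08. Eya2, a developmental transcription cofactor, gave 10.63, 10.64, 10.53, 10.61, 10.61 and 10.53, and Ctsk, a matrix-degrading protease, 11.65, 11.80, 11.74, 11.70, 11.77 and 11.75. Beside Zeb1, Tbx3 and Itgb1, this set included the replication factor Mcm5, Pfkp, Fzd4, Mef2d and Myod1.

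**Figure D5:**
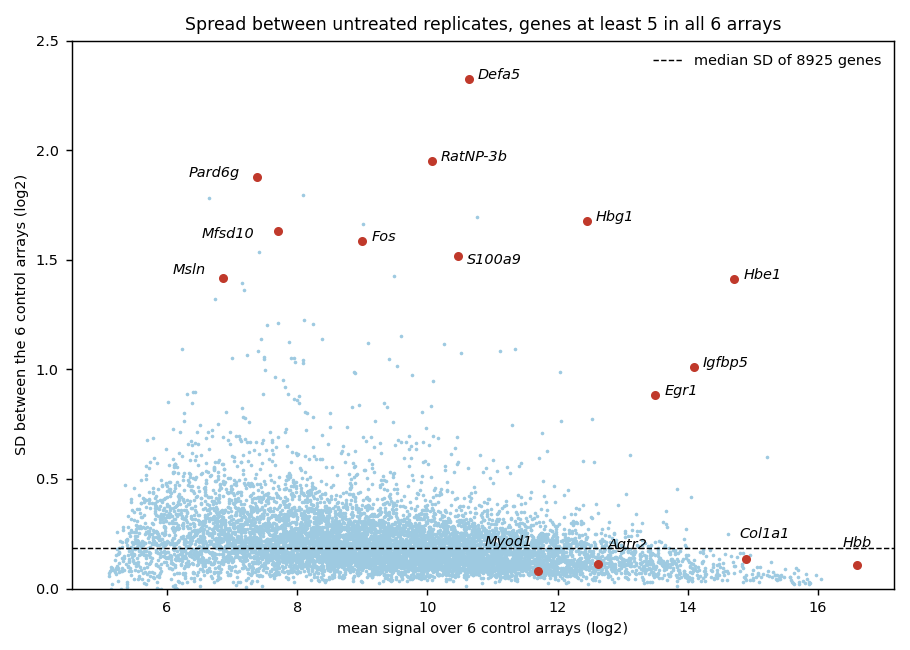
SD over the 6 control arrays (log2) against mean signal (log2) for the 8925 clear genes, 1 point per gene, with named genes in red and a dashed line at the median SD of 0.18. Most genes lie below 0.5, 45 lie above 1, and Defa5 has the largest SD, 2.33.

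Of the 25 clear genes with the largest SDs, 19 had replicates 3, 4 and 5 as the 3 highest arrays and 4 had them as the 3 lowest. Over all clear genes these orders were seen for 9.0% and 13.9%. These replicates were set apart above on the first component of the same genes, where genes of large SD weigh most. The count therefore gives no separate evidence for the division. Defa5, a defensin, gave 8.57, 8.96, 11.67, 13.61, 12.74 and 8.26 (SD 2.33, n = 6), and the neutrophil genes S100a8 and S100a9 and the defensins Np4 and RatNP-3b followed the same order. Of the immediate early genes among the listed factors, Fos gave 7.97, 7.83, 10.31, 10.61, 10.31 and 6.96, and Egr1, shown above with its CArG boxes, gave 12.88, 12.69, 14.26, 14.45, 14.19 and 12.54. Jun, the partner of Fos, did not share this order, with 11.25, 11.15, 10.94, 11.08, 11.00 and 11.02. Ccn1, a matricellular protein, gave 4.30, 4.30, 8.35, 8.93, 8.62 and 2.94. Genes Fos, Egr1 and Ccn1 each had replicates 3, 4 and 5 above the others with no overlap. Of all clear genes 9.0% had this order, a share that does not cover Ccn1, which lay between. Fos was also among the genes that weigh most on the first component. Pard6g, a polarity protein, gave 5.77, 5.81, 9.07, 8.85, 9.33 and 5.45. Stfa2l2, Hemgn, Slc25a37, Vsnl1, Urah, Myo5c, Svip and Pkib also had replicates 3, 4 and 5 as the 3 highest. Mfsd10, a membrane transporter, went the other way, with 8.91, 8.50, 6.08, 5.87, 6.96 and 9.87, as did Ano1, Cdh3 and Rnf34.

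Genes of the peritoneal covering set replicate 6 apart. Msln, mesothelin, gave 7.59, 6.53, 5.54, 5.64, 6.56 and 9.33, and Krt8, a keratin of simple epithelia and mesothelium, 7.86, 7.98, 7.23, 7.70, 7.63 and 10.11. Krt19, another such keratin, gave 8.18, 7.63, 6.95, 6.72, 7.90 and 9.87. Lrrn4, a membrane protein of mesothelium, gave 9.22, 9.16, 8.66, 8.78, 9.30 and 10.53. Replicate 6 was the highest array for 6 of the 7 mesothelium genes not at the floor, beside 2558 of all clear genes (28.7%). The exception was Wt1, with 12.19 in replicate 1 and 12.16 in replicate 6. Replicate 6 was also highest for 18 of 42 skeletal muscle genes (42.9%) and 6 of 17 fibroblast genes (35.3%) not at the floor. These list counts include genes that lay between, which the share of clear genes leaves out. The second component of the clear genes had already set replicate 6 apart, so the counts give no separate evidence for that. The mean of the mesothelium list was 9.03 there and 6.95 to 7.84 in the others. Pnoc, the nociceptin precursor, and Upk1b, a uroplakin, were also highest in replicate 6, at 9.84 and 9.26. What part mesothelial cells had in these differences was not tested.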

How the data were processed

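Expression was measured in 6 control arrays of cultured gubernaculum, which the labels call biological replicates. The deposited log2 values per probe set were made by the authors with GCRMA, per the submitters' processing notes, which corrects background by probe sequence, normalizes arrays to each other and summarises probes. Its version and the log base are not given in the sources used here. Base 2 is the scale that GCRMA writes. Whether arrays the submitters set aside were normalized with the others is not stated. GCRMA gives low probe sets a shared floor near 2.11, so differences near the floor are compressed.

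Of 31099 probe sets, 57 are manufacturer controls. The probe table listed 21268, of which 20832 carried 1 gene and 436 carried several and were left unnamed, and 9831 were not listed. Of the single-gene probe sets 20764 matched the GRCr8 gene table and 68 did not. Of 14218 genes 4526 had several probe sets, and the one with the highest mean stood for the gene. Classes used thresholds of 5, 10 and 0.1 above the floor. With 1 group nothing was compared and no p-value was computed, and errors are SDs over 6 arrays, whose number limits the precision.

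Named genes were drawn from the 30 strongest, the 25 of largest SD among clear genes, the 10 of smallest SD among listed genes with means of 8 to 13, 5 tissue markers, and members of 57 lists (1128 genes, 957 on the array) by role, including the strongest and floor members. The members and lists were chosen with earlier results of these data known. Scripts ran in Python 3.11.15 with numpy 2.4.6 and pandas 2.3.3 and were tested on simulated data. Alternatives covered the thresholds, a repeated quantile normalization, the median over probe sets and leaving out arrays.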

Additional observations from a re-analysis of the deposited data

Results flagged for a closer look

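Within the 6 control arrays, 168 values were examined for 1 array whose gap to the nearest other array exceeded Dixon's limit for 6 samples. They were named genes, list means and a few array measures such as cRNA yield. For unselected, normally distributed values chance gives about 1 in 20 such results, and 15 met the limit. Many of these genes were chosen for their spread or level and are not independent, so the 15 cannot be set against that rate. In replicate 6, Wnt16 was low at 5.46, Eif2s3y at 10.03 and H2az1 at 15.25, while Krt8 was high at 10.11, Penk at 11.91 and Rpsa at 15.77. The means of 4 lists also stood apart in replicate 6, at 10.61 for matrix crosslinking and collagen processing, 5.24 for other growth factors, 4.97 for urogenital and gonadal factors and 4.32 for Sox factors. In replicate 4 the liver genes Apoa1, Fgb and Serpina1 stood apart, at 5.74, 4.54 and 3.58, with the other arrays at or near the floor. Arrays held at the floor have almost no spread, so a gap meets the limit easily there. In replicate 2 Hspa1a, an inducible heat shock chaperone, stood apart at 5.53 and Rpl37a, a ribosomal protein gene, at 15.84.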

How the results depend on the processing

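The number of clear genes, 8925, was 9450 with a threshold of 4, 8309 with 6 and 8157 with the median over probe sets. It was 8967 without replicates 4 and 5, a choice made after seeing the data. Quantile normalization of the already normalized GCRMA values gave 8919, a repeat that could change little. Counting signals above the 95th percentile of chemosensory receptor probe sets gave 11142. That level was 2.11, the floor itself, so some genes within 0.1 of the floor then counted as clear. Leaving out each replicate gave 8940 to 8960. Floor genes, 3219, ran from 3206 to 3755. The median SD, 0.18, was 0.15 without replicate 6 and between 0.18 and 0.19 otherwise. Taking the median over probe sets moved 28 of 119 gene means by more than their SD, among them Igf2 (15.66 to 2.12), Igfbp5 (14.09 to 9.44), Agtr2 (12.63 to 10.53) and Nr3c1 (9.36 to 5.73). The chemosensory threshold, which is the floor, moved the clear count of 21 of 57 lists by over 1.5 times, for example nuclear receptors from 13 to 22. Without replicate 4 the hepatocyte list had 8 floor members in place of 2. No paired analysis was possible because only 1 group is described.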
